A study of Mus musculus with 9 samples.

Results

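Transcripts of 8 lymphocyte marker genes (Cd79a, Cd79b, Ms4a1, Ighm, Cd3e, Cd3g, Cd8a and Nkg7) were followed in whole lumbar dorsal root ganglia of mice given a platinum drug. The members were taken by gene symbol, and all 8 were found among the 38926 gene rows of each count file. Lumbar ganglia (L3 to L5), taken ipsilateral to the injected paws, came from male wild-type C57BL/6 mice, 8 to 10 weeks old. The animals had received vehicle, cisplatin to a cumulative 40 µg or oxaliplatin to a cumulative 40 µg, both by intraplantar injection. Each group had 3 libraries, and each library was made from the pooled ganglia of 4 animals, so the spread reported here is between pools and not between single animals. No cells were sorted, and the interval between the last dose and dissection is not given in the sources used here.

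B lymphocytes recognise antigen through a surface immunoglobulin whose mu heavy chain is encoded by Ighm. That immunoglobulin signals through the paired chains CD79A and CD79B, while Ms4a1 encodes CD20, a membrane protein of mature B cells. T lymphocytes signal through the CD3 complex, of which Cd3e and Cd3g encode the epsilon and gamma chains. Cd8a marks the cytotoxic subset, and Nkg7 encodes a granule protein shared by natural killer (NK) cells and cytotoxic T cells. In ganglia, lymphocytes are a minor population beside neurons, glia and resident macrophages, and they also travel in the blood that fills the tissue's vessels.

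Promoter sequences are shown for Cd79a and Nkg7, the 2 members called after cisplatin that the RefSeq promoter table (GRCm38.p6) holds, so that the letters before their start sites can be read beside their values. The table held 5 of the 8 members, with no entry for Cd79b, Ms4a1 and Ighm. Each run gives the 250 bases before the RefSeq start on the plus strand, at chr7:24897247-24897496 for Cd79a and chr7:43436888-43437137 for Nkg7. The GENCODE M21 genes start earlier, at 24897381 for Cd79a and 43437073 for Nkg7. The last part of each run, with the T-box match of Nkg7, thus lies inside the GENCODE gene. Capitals mark the CAGGTG form of the E-box in Cd79a, and the RUNX and T-box matches in Nkg7.
Cd79a: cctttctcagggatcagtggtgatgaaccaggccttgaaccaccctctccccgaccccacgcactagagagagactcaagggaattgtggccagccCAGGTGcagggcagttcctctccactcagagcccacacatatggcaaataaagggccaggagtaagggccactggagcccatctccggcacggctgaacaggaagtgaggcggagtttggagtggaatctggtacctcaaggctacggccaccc
Nkg7: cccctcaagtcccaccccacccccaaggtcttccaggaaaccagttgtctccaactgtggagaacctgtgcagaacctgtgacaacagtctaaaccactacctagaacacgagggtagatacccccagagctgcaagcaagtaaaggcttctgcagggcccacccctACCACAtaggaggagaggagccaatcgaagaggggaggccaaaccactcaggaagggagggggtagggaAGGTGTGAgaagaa
Both strands of each 300-base window (250 bases before to 50 after the start) were searched for 9 motifs. The Cd79a window held the E-box form CAGGTG once, 154 bases before the start, a match found in 20.2% of the 32851 promoter windows. The Nkg7 window held the T-box letters AGGTGTGA 14 bases before the start (1.28% of windows) and the RUNX letters TGTGGT on the minus strand 83 bases before it (16.8% of windows). Neither window held the octamer ATTTGCAT (1.74%), the EBF motif (0.904%), the ETS letters CCGGAAGT (3.89%) or TATAAA (13.6%). The short forms CANNTG and GGAA, held by 72.3% and 96.0% of windows, are left in lower case. CANNTG occurred 2 times in each window, 1 of them being the CAGGTG of Cd79a, and GGAA (the ETS core) occurred 4 times in each. The last GGAA of Nkg7 shares its final base with the T-box letters. These matches describe letters only.

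All values rest on few reads, apart from Ighm. Reads assigned to genes ranged from 22819185 to 38808509 per library, and levels are given as CPM, reads scaled to a common library size after TMM normalization. A detection floor of 3 reads corresponded to 0.0711 to 0.188 CPM, highest in vehicle library 2. That library stood apart, with 47.7% of its uniquely aligned reads outside genes against 16.6 to 26.8% in the other 8, and a TMM factor of 0.700. Sensory neuron markers (Rbfox3, Tubb3, Prph, Scn10a, Avil and Isl1) summed to 5507 to 6399 CPM over all 9 libraries, as the tissue label states.

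Compared per kilobase of exon in the vehicle libraries, Ighm stood far above the other members, at 12.1 ± 1.73 CPM per kb (SD, n = 3). Cd79b followed at 0.376 ± 0.122 CPM per kb. Cd79a (0.152 ± 0.0632), Nkg7 (0.142 ± 0.114) and Ms4a1 (0.0851 ± 0.0403) came next, and their spreads overlapped. The T cell genes Cd3g (0.0452 ± 0.0481), Cd3e (0.0348 ± 0.0145) and Cd8a (0.0163 ± 0.0155) were lowest, with spreads that also overlapped. The order by this scale put the mean of each B cell gene above that of each CD3 or CD8 gene. The spread of Cd3g, on 0, 5 and 4 reads, overlapped those of Cd79a and Ms4a1.

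**Figure D1:**
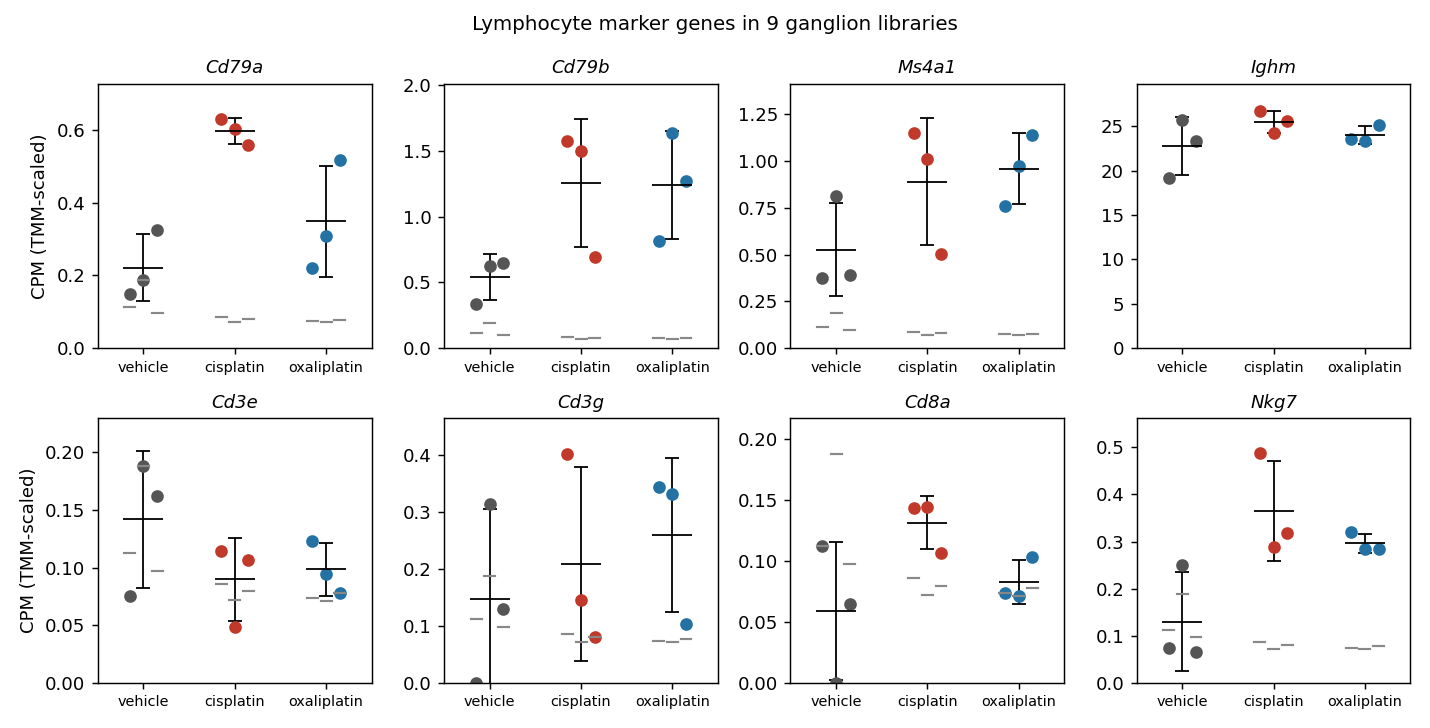
Level of each of the 8 genes in CPM (vertical axes, 1 point per library) in the vehicle, cisplatin and oxaliplatin groups; crossbars and whiskers are the mean and SD of 3 libraries, truncated at 0, and grey ticks mark 3 reads in that library (not drawn for Ighm). Cisplatin libraries sit above all vehicle libraries for Cd79a, Cd79b and Nkg7. Cd3e and Cd8a lie near the ticks, and Cd3g lies well above them in some libraries only.

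Comparing cisplatin with vehicle asked which lymphocyte transcripts were altered in ganglia of animals given the drug. Cd79a, Cd79b and Nkg7 rose, by 2.57-, 2.35- and 3.21-fold. Ms4a1 and Ighm did not pass the test, and neither did Cd3g. With edgeR's quasi-likelihood test and Benjamini-Hochberg adjustment over 17348 genes, 3 of the 6 members tested were called higher and 0 lower, where 15.8% of all tested genes were called higher. Cd3e and Cd8a had too few reads for the expression filter. Cd79a, Nkg7 and Cd3g had few vehicle reads and may have passed it through the drug libraries alone. The number of calls among those tested thus describes the members and no more. The count was 0 without vehicle library 1, 1 without vehicle library 3 or cisplatin library 1, and 5 without vehicle library 2. The share of all tested genes called higher moved as well. It was 10.9% without vehicle library 1, 12.0% without vehicle library 3, 10.8% without cisplatin library 1 and 19.2% without vehicle library 2. Fewer cells of a type and less RNA per cell cannot be told apart in such bulk tissue, and the same holds for more.

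Cd79a (ENSMUSG00000003379.7, GRCm38 chr7:24897381-24902197, plus strand) encodes the alpha signalling chain of the B cell receptor. Vehicle libraries 1 to 3 held 4, 3 and 10 reads, or 0.150, 0.188 and 0.325 CPM. Cisplatin libraries 1 to 3 held 22, 25 and 21 reads, or 0.631, 0.603 and 0.558 CPM. Every cisplatin library lay above every vehicle library, a separation in that direction shown by 21.3% of all tested genes. The log2 fold change was 1.36 (SE 0.39, 95% interval 0.51 to 2.21, edgeR adjusted p = 0.0165, n = 3 per group). Without vehicle library 1 the call was lost (1.13, edgeR adjusted p = 0.0783).

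Cd79b (ENSMUSG00000040592.11, chr11:106311341-106314762, minus strand) encodes the partner chain of CD79A. The vehicle libraries held 9, 10 and 20 reads (0.337, 0.626 and 0.650 CPM), and the cisplatin libraries held 55, 62 and 26 reads (1.58, 1.49 and 0.691 CPM). Cisplatin library 3 was close to the highest vehicle library, and the other 2 cisplatin libraries were well above it. The log2 fold change was 1.23 (SE 0.40, interval 0.36 to 2.11, edgeR adjusted p = 0.0294). Leaving out vehicle library 1 (adjusted p = 0.124 in edgeR), vehicle library 3 (0.05003), cisplatin library 1 (0.0921) or cisplatin library 2 (0.0952) ended the call. A fit with offsets for GC content and transcript length, which removes each library's dependence on both, also ended it (0.99, edgeR adjusted p = 0.0610), as did limma-voom (1.17, adjusted p = 0.0612).

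Ms4a1 (ENSMUSG00000024673.9, chr19:11249675-11266241, minus strand) encodes CD20 and overlaps the antisense gene 4930526L06Rik on the opposite strand, so its reads could be mixed with that gene's if strand was not used in counting. It held 10, 13 and 12 reads in vehicle (0.375, 0.814 and 0.390 CPM) and 40, 42 and 19 reads in cisplatin (1.15, 1.01 and 0.505 CPM). Cisplatin library 3 lay below vehicle library 2, so the groups overlapped. The difference of 0.86 (SE 0.38, interval 0.04 to 1.69) did not pass, with an edgeR adjusted p of 0.0905. It passed without vehicle library 2 (1.22, edgeR adjusted p = 0.0306), without cisplatin library 3 (1.17, 0.0165) in the fit with GC and length offsets (1.04, 0.0457) and with no expression filter (0.90, 0.0477).

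Ighm (ENSMUSG00000076617.9, chr12:113418558-113422730, minus strand) carries the constant region of the mu heavy chain, and its counts were the most precise of the 8. Vehicle libraries held 513, 410 and 719 reads (19.2, 25.7 and 23.4 CPM). Cisplatin libraries held 931, 1006 and 962 reads (26.7, 24.3 and 25.6 CPM), and the groups overlapped. The difference was 0.17 (SE 0.09, interval -0.03 to 0.37, edgeR adjusted p = 0.153), so the interval allows at most a 1.29-fold rise. Without vehicle library 2 it passed (0.27, edgeR adjusted p = 0.0218), and with GC and length offsets it was -0.030.

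Nkg7 (ENSMUSG00000004612.9, chr7:43437073-43438249, plus strand) had 2, 4 and 2 reads in vehicle (0.0750, 0.251 and 0.0650 CPM). Vehicle libraries 1 and 3 were thus below the floor of 3 reads. Cisplatin libraries had 17, 12 and 12 reads (0.487, 0.289 and 0.319 CPM), all above the vehicle libraries. The log2 fold change was 1.68 (SE 0.49, interval 0.61 to 2.75, edgeR adjusted p = 0.0175). The call ended without vehicle library 1 (1.46, adjusted p = 0.0770 in edgeR), vehicle library 3 (1.32, 0.0907) or cisplatin library 1 (1.43, 0.0590).

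For the T cell receptor genes the depth set the limit. Cd3g (ENSMUSG00000002033.14, chr9:44969572-44980431, minus strand) had 0, 5 and 4 reads in vehicle and 14, 6 and 3 in cisplatin. Its log2 fold change of 0.69 had an interval from -1.23 to 2.62 (edgeR adjusted p = 0.562), and the sign turned to -0.12 without cisplatin library 1. Cd3e (ENSMUSG00000032093.7, chr9:44998740-45009627, minus strand), which overlaps the predicted genes Gm48719 and Gm48720, had 2, 3 and 5 reads in vehicle and 4, 2 and 4 in cisplatin. The 10 reads per group gave pooled levels of 0.136 CPM in vehicle (95% exact Poisson interval 0.0653 to 0.251) and 0.0877 in cisplatin (0.0421 to 0.161), intervals that cover counting error only. Cd8a (ENSMUSG00000053977.13, chr6:71373427-71379173, plus strand) had 3, 0 and 2 reads in vehicle and 5, 6 and 4 in cisplatin. In a fit without the expression filter the log2 fold change was -0.57 for Cd3e (interval -2.0 to 0.85, edgeR adjusted p = 0.608) and 0.97 for Cd8a (interval -0.60 to 2.53, edgeR adjusted p = 0.432). The intervals of Cd3g and Cd8a include a rise of the size seen for Cd79a (1.36), while the upper bound of Cd3e lies below it.

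Oxaliplatin was set against the same vehicle libraries, so its differences are not independent of those of cisplatin. Cd79b rose 2.32-fold and Nkg7 2.63-fold, and these were the 2 members called higher of 6 tested (0 lower, edgeR), where 17.5% of all tested genes were called higher. Cd79a and Ms4a1 did not pass, nor did Ighm or Cd3g. The same limit of the expression filter holds for this count. The count was 0 without vehicle library 1, oxaliplatin library 2 or oxaliplatin library 3, and 1 without vehicle library 3 or cisplatin library 2. In those 5 fits 12.8, 11.1, 11.35, 13.8 and 15.7% of all tested genes were called higher, in the same order. Groups did not overlap, with oxaliplatin higher, for the same 2 members of 8, as for 23.1% of all tested genes.

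Oxaliplatin libraries 1 to 3 held 33, 69 and 49 Cd79b reads (0.811, 1.63 and 1.27 CPM), all above the vehicle libraries. The log2 fold change was 1.22 (SE 0.40, interval 0.35 to 2.09, edgeR adjusted p = 0.0285). The call was lost without vehicle library 1 (adjusted p = 0.122 in edgeR), oxaliplatin library 2 (0.106) or oxaliplatin library 3 (0.0646), and with GC and length offsets (0.97, 0.0638) or in limma-voom (0.0534). Nkg7 had 13, 12 and 11 reads (0.319, 0.284 and 0.285 CPM), the narrowest spread of the 3 groups. Its log2 fold change was 1.40 (SE 0.50, interval 0.30 to 2.49, edgeR adjusted p = 0.0419). That call depended on vehicle library 1 (0.145 without it), vehicle library 3 (0.181), cisplatin library 2 (0.0507) and each oxaliplatin library (0.0736 to 0.0791 in edgeR), and it was lost with GC and length offsets (1.12, adjusted p = 0.103) and in DESeq2 (adjusted p = 0.0954).

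Cd79a had 9, 13 and 20 reads after oxaliplatin (0.221, 0.308 and 0.518 CPM), of which only library 3 stood clear of the vehicle range. The difference was 0.58 (SE 0.42, interval -0.34 to 1.51, edgeR adjusted p = 0.292). Ms4a1 had 31, 41 and 44 reads (0.762, 0.971 and 1.14 CPM), and vehicle library 2 at 0.814 CPM fell within that range. Its difference of 0.97 (SE 0.37, interval 0.16 to 1.79) had an edgeR adjusted p of 0.0544. It passed without vehicle library 2 (1.33, edgeR adjusted p = 0.0186), cisplatin library 3 (0.0221) or oxaliplatin library 1 (0.0360), and with GC and length offsets (1.22, 0.0207). Ighm had 958, 984 and 972 reads (23.5, 23.3 and 25.2 CPM), inside the vehicle range in every library, with a difference of 0.09 (interval -0.11 to 0.28, edgeR adjusted p = 0.476).

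Cd3e and Cd8a were again near the floor after oxaliplatin, while Cd3g was well above it in libraries 1 and 2. Cd3g had 14, 14 and 4 reads (difference 1.06, interval -0.76 to 2.88, edgeR adjusted p = 0.331). Cd3e had 5, 4 and 3 reads and Cd8a 3, 3 and 4. Without the expression filter their differences were -0.41 (interval -1.79 to 0.97) and 0.32 (interval -1.36 to 2.0). Summed over Cd3e, Cd3g and Cd8a, libraries held 5 to 11 reads in vehicle, 11 to 23 in cisplatin and 11 to 22 in oxaliplatin, or 0.187 to 0.501, 0.292 to 0.660 and 0.285 to 0.541 CPM. These ranges overlapped on the CPM scale.

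**Figure D2:**
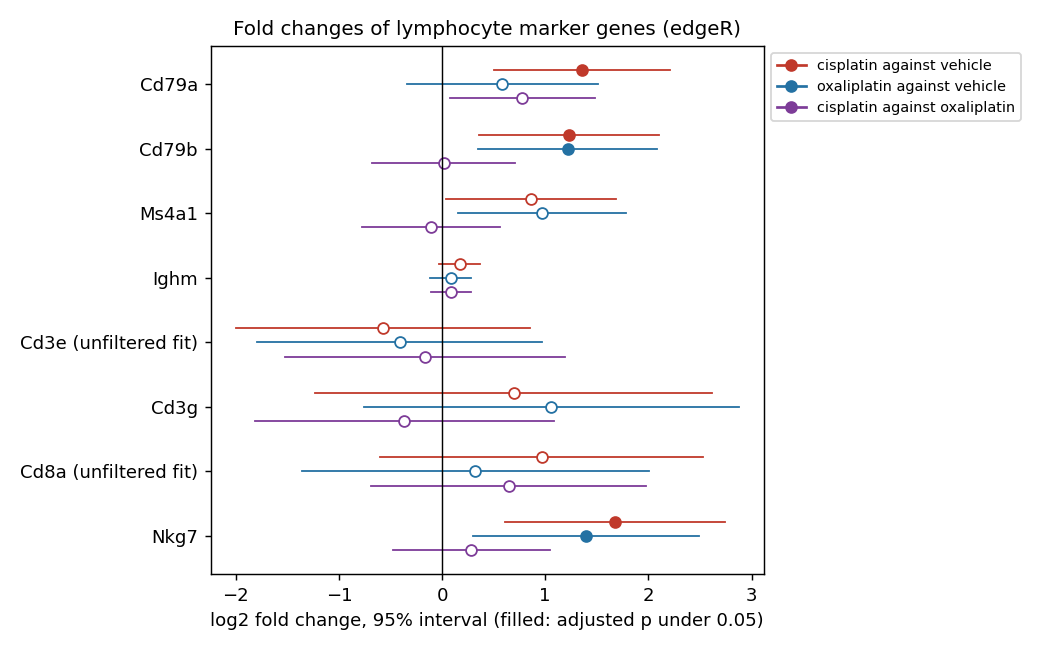
Log2 fold changes of the 8 genes (horizontal axis) with 95% intervals from edgeR for the 3 comparisons; filled points have an adjusted p under 0.05, and Cd3e and Cd8a come from the fit without the expression filter. Intervals are narrowest for Ighm (-0.03 to 0.37 for cisplatin) and widest for Cd3g, Cd3e and Cd8a.

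Cisplatin and oxaliplatin, both platinum compounds given to the same cumulative dose, were then compared directly, and none of the 6 members tested passed. In edgeR 0 were called in either direction, 1 had an unadjusted p under 0.05, and DESeq2 and limma-voom also called 0. Of all tested genes, 0.0115% were called. The exception by unadjusted p was Cd79a, which was 1.71-fold higher in cisplatin (interval 1.05 to 2.79, adjusted p = 0.767 in edgeR), with all cisplatin libraries above all oxaliplatin libraries, as for 8.04% of all tested genes. Cd8a showed the same separation on 3 to 6 reads per library. The interval of the fold between the drugs was 0.624 to 1.64 for Cd79b, 0.583 to 1.48 for Ms4a1, 0.930 to 1.21 for Ighm and 0.717 to 2.06 for Nkg7. The data allow differences within these bounds for those genes.

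Cd79a, Cd79b and Ms4a1 did not vary evenly over the drug-treated pools. Summed over the 3 genes, vehicle libraries 1 to 3 had 0.862, 1.63 and 1.37 CPM, cisplatin libraries 3.35, 3.11 and 1.75 CPM, and oxaliplatin libraries 1.79, 2.91 and 2.93 CPM. Cisplatin library 3 and oxaliplatin library 1 were thus the lowest of the 6 drug libraries, little above vehicle library 2. Those 2 libraries were also the lowest of the drug libraries in the summed level of 7 erythroid genes (100.5 and 86.4 CPM, against 200.6 to 218 in the other 4) and of 11 neutrophil genes (179 and 94.4 CPM, against 201 to 287). In vehicle libraries the erythroid sum was 40.4 to 57.6 CPM and the neutrophil sum 45.7 to 108 CPM. All 7 erythroid and all 11 neutrophil genes reached the floor in all 9 libraries. The part of blood cell content in the lymphocyte results was not tested.

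**Figure D3:**
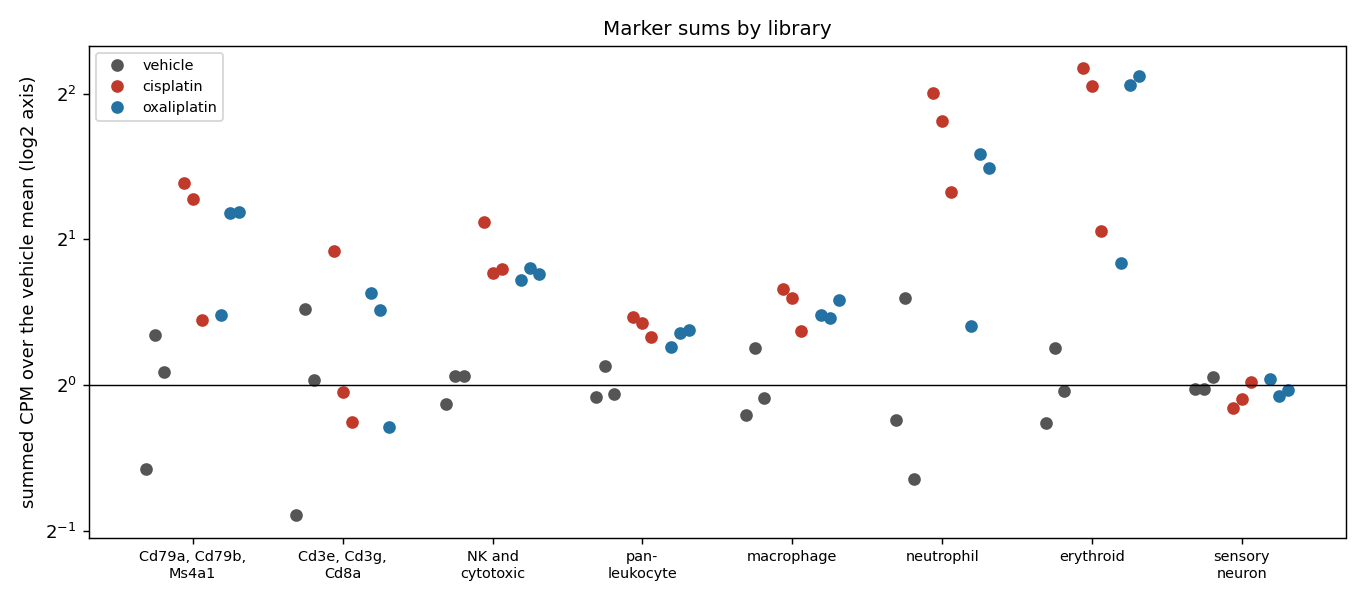
Summed CPM of marker genes in each library over the mean of the 3 vehicle libraries (vertical log2 axis), for B cell genes, T cell genes and 6 other lists; each point is a library. The 3 B cell genes averaged 2.13 times the vehicle mean in cisplatin and 1.98 times in oxaliplatin, against 3.58 and 3.44 times for erythroid genes and 0.949 and 0.985 times for sensory neuron genes. Within the neuron sum, 3 of 6 genes (Scn10a, Rbfox3 and Isl1) were called lower and 0 higher with each drug in edgeR. Over all tested genes, 22.9% were called lower for cisplatin and 24.1% for oxaliplatin.

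B cell genes were then set against other leukocyte transcripts. The ratio of the Cd79a, Cd79b and Ms4a1 sum to Ptprc, which encodes the CD45 antigen of all leukocytes, was 0.0875 to 0.132 in vehicle, 0.106 to 0.167 in cisplatin and 0.141 to 0.196 in oxaliplatin. Vehicle and oxaliplatin did not overlap in this ratio, and vehicle and cisplatin did. Relative to the neutrophil sum the same 3 genes were at 0.0143 to 0.0299 in vehicle and 0.00979 to 0.0124 in cisplatin, lower in every cisplatin library than in any vehicle library. In oxaliplatin this ratio was 0.0136 to 0.0190, which overlapped vehicle. All 8 pan-leukocyte genes rose after cisplatin (edgeR adjusted p under 0.05), with a list median of 0.79, and 7 rose after oxaliplatin, with a median of 0.54. The medians of all tested genes were 0.00 in both comparisons, and 15.8 and 17.5% of those genes were called higher. Rac2, a leukocyte GTPase, changed by 1.28 after cisplatin and 0.73 after oxaliplatin, and Ptprc by 0.75 and 0.36.

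More B cell genes than the 4 members were examined, from a list of 20 of which 18 had a row and 16 passed the filter. After cisplatin 8 were called higher and 0 lower in edgeR (11 by unadjusted p), and after oxaliplatin 2 were called higher and 0 lower (5 by unadjusted p). The list medians were 0.96 and 0.62, against 0.00 for all tested genes. Of all tested genes 15.8 and 17.5% were called higher, so the oxaliplatin count of 2 in 16 was not above the background. Members of the list may pass the filter through the drug libraries alone, so these counts describe the list and no more. Spib, a transcription factor of B cells and plasmacytoid dendritic cells, rose from 0.450 to 1.06 CPM after cisplatin (1.31, SE 0.30, edgeR adjusted p = 0.00485) and was 0.755 CPM after oxaliplatin (0.82, edgeR adjusted p = 0.0522). Cd72, a B cell co-receptor that binds CD100, rose under both drugs, from 0.939 to 1.75 CPM (0.97, edgeR adjusted p = 0.0118) and 1.86 CPM (1.07, edgeR adjusted p = 0.00626). Fcrla, an intracellular Fc receptor-like protein of B cells, changed by 1.55 after cisplatin (edgeR adjusted p = 0.0139), and Pax5, the factor that sets B cell identity, by 1.50 (edgeR adjusted p = 0.0307). After oxaliplatin Fcrla (0.95, edgeR adjusted p = 0.117) and Pax5 (0.57, edgeR adjusted p = 0.426) did not pass. The count for cisplatin was 2 without vehicle library 1, 3 without vehicle library 3, 4 without cisplatin library 1 or 2, and 14 under library totals alone, a scaling that called 34.5% of all genes higher and moved their median to 0.29. For oxaliplatin it was 1 without vehicle library 1, oxaliplatin library 2 or oxaliplatin library 3, 5 without vehicle library 2 or oxaliplatin library 1, and 10 under library totals alone, with 36.9% of all genes higher and a median of 0.30. With 1 library left out in turn, 10.2 to 19.2% of all tested genes were called higher for cisplatin and 11.1 to 20.4% for oxaliplatin.

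Genes that relay the B cell receptor signal rose after cisplatin in 6 of 10 cases, with none lower, and in 3 of 10 after oxaliplatin. The shares of all tested genes called higher were 15.8 and 17.5%, which also stand beside the macrophage counts below. Several of the signalling genes also serve myeloid cells. Blnk, the adaptor below the receptor, went from 0.968 to 1.71 CPM with cisplatin (0.89, SE 0.25, edgeR adjusted p = 0.0143). Syk, the kinase recruited by CD79A and CD79B, changed by 0.67 (edgeR adjusted p = 0.000697) after cisplatin and 0.38 (edgeR adjusted p = 0.0183) after oxaliplatin. Vav1, an exchange factor of lymphoid and myeloid cells, changed by 0.96 and 0.46, Plcg2 by 0.41 and 0.25, Ptpn6 by 0.83 and 0.70, and Lyn by 0.32 and 0.17. The oxaliplatin values of Plcg2 (edgeR adjusted p = 0.0736), Lyn (0.172) and Blnk (0.110) did not pass. Macrophage genes moved in the same libraries, with 8 of 9 tested higher after cisplatin and 7 after oxaliplatin, and a summed level of 91.3 to 126 CPM in vehicle, 136 to 166 in cisplatin and 145 to 158 in oxaliplatin. C1qb, a complement subunit of macrophages, rose from 8.94 to 14.4 and 15.1 CPM. Their part in the signalling genes' change was not tested.

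T cell genes beyond the members showed no call. Of 18 listed, 17 had a row and 6 passed the filter, and edgeR called 0 after either drug, with 0 by unadjusted p; DESeq2 and limma-voom called 0 as well. Cd6 and Cd2, adhesion receptors of T cells, had the smallest p-values after cisplatin (0.97, edgeR adjusted p = 0.188, and 0.78, edgeR adjusted p = 0.196). Under library totals alone 1 T cell gene was called after oxaliplatin, as was 1 without oxaliplatin library 2. The list summed to 1.98 to 3.38 CPM in vehicle, 3.18 to 3.30 in cisplatin and 2.88 to 3.45 in oxaliplatin, and these ranges overlapped. Of the genes that relay the T cell receptor signal, Plcg1, a phospholipase, fell after cisplatin (-0.23, edgeR adjusted p = 0.0202). Lck, the kinase bound to CD4 and CD8, rose after oxaliplatin (0.66, edgeR adjusted p = 0.0233).

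NK and cytotoxic genes accompanied Nkg7. Of 17 listed, 7 passed the filter, and 3 were called higher with each drug, the same 3 genes being Nkg7, Il2rb and Klrd1. Over all tested genes, 15.8% were called higher for cisplatin and 17.5% for oxaliplatin. Nkg7 and Klrd1 had few vehicle reads and may pass the filter through the drug libraries alone. The counts thus describe the list and no more. Il2rb, the shared beta chain of the interleukin-2 and interleukin-15 receptors, rose from 0.510 to 0.904 CPM after cisplatin (0.89, edgeR adjusted p = 0.0227) and 0.960 CPM after oxaliplatin (0.99, edgeR adjusted p = 0.0119). Klrd1, which encodes the NK receptor chain CD94, rose from 0.168 to 0.395 CPM (1.36, edgeR adjusted p = 0.0207) and 0.337 CPM (1.14, edgeR adjusted p = 0.0461). Summed over the list, libraries held 2.14 to 2.44 CPM in vehicle, 3.98 to 5.08 in cisplatin and 3.86 to 4.07 in oxaliplatin, with no overlap between vehicle and either drug. Genes at or above 3 reads numbered 5 to 9 of 17 in vehicle and 13 to 15 in the drug libraries, but 3 reads stand for 0.0975 to 0.188 CPM in vehicle and 0.0711 to 0.0860 CPM in the drug libraries, so this count moves with depth. The number of calls after cisplatin was 1 without vehicle library 1 or 3 and 0 without cisplatin library 1. After oxaliplatin it was 1 without vehicle library 1, vehicle library 3, cisplatin library 2 or any of the oxaliplatin libraries. The share of all tested genes called higher in the left-out fits was 10.2 to 19.2% for cisplatin and 11.1 to 20.4% for oxaliplatin.

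Antigen receptor loci allowed the Ighm reads to be set beside light chain reads. Igkc, the kappa light chain constant region, had 15, 12 and 7 reads in vehicle, 42, 57 and 35 in cisplatin and 23, 24 and 57 in oxaliplatin. It rose after cisplatin (1.30, SE 0.46, edgeR adjusted p = 0.0412) and did not pass after oxaliplatin (0.86, edgeR adjusted p = 0.166). Ighm thus had 34.2 to 103 reads per Igkc read in vehicle, 17.6 to 27.5 in cisplatin and 17.1 to 41.7 in oxaliplatin. Per exon length its level was 55.5 to 106 times that of Cd79a in vehicle and 31.1 to 35.4 times in cisplatin, ranges that did not overlap. In oxaliplatin it was 37.5 to 82.2 times, which overlapped vehicle. A lambda constant region, Iglc2, had 0 to 13 reads per library.

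Variable segments of the immunoglobulin loci were summed as a further measure of immunoglobulin RNA. Over 221 segments of the heavy, kappa and lambda loci, vehicle libraries held 25 to 31 reads (0.937 to 1.63 CPM), cisplatin libraries 66 to 85 (1.75 to 2.44 CPM) and oxaliplatin libraries 45 to 127 (1.11 to 3.29 CPM). Cisplatin and vehicle did not overlap, and oxaliplatin and vehicle did. Segments with at least 1 read numbered 18 to 22 in vehicle, 39 to 46 in cisplatin and 32 to 36 in oxaliplatin. Near-identical segments share reads that align to multiple places, which were assigned to no gene, so these numbers are uncertain. The 143 T cell receptor variable segments held 5 to 11 reads in vehicle, 16 to 28 in cisplatin and 13 to 20 in oxaliplatin. On the CPM scale these ranges overlapped, at 0.195 to 0.412, 0.386 to 0.803 and 0.308 to 0.491 CPM. Trac, the alpha chain constant region, had 3 reads in each vehicle library, 5 to 11 in cisplatin and 3 to 16 in oxaliplatin (differences 0.70 and 1.03, edgeR adjusted p = 0.459 and 0.235). Trbc1 had 0 to 4 reads and Trbc2 1 to 6 per library over all 9.

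**Figure D4:**
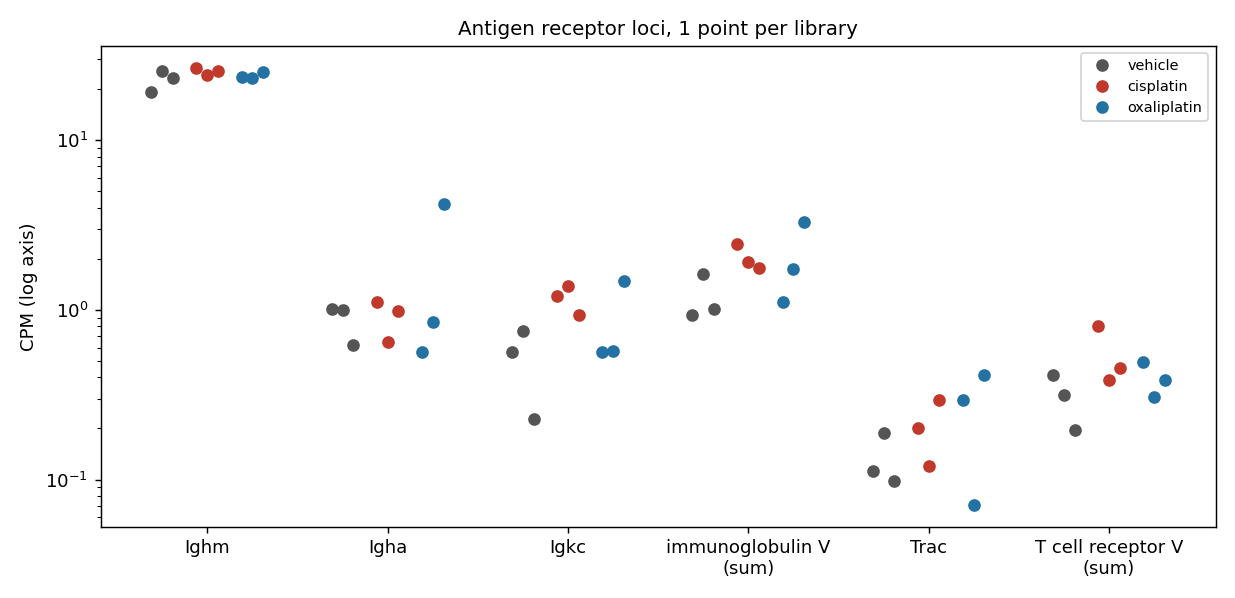
CPM of antigen receptor constant regions and of summed variable segments (vertical log axis), 1 point per library. Ighm lies between 19.2 and 26.7 CPM in all 9 libraries, while immunoglobulin variable segments lie at 0.937 to 1.63 CPM in vehicle and 1.75 to 2.44 CPM in cisplatin; oxaliplatin library 3 is the highest for Igha, Igkc and the variable segments.

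Among the members, Cd79b and Ms4a1 had the most similar pattern over the 9 libraries, with a Pearson correlation of log2(CPM + 0.5) of 0.868, and 0.873 over the 6 drug libraries. Over those 6 the highest value was that of Cd79a and Cd8a (0.904), the latter on 3 to 6 reads per library. Cd79a and Cd79b had 0.670 and 0.250. These correlations are descriptions, and the libraries of a group share their treatment. Over all tested genes, the patterns nearest to Cd79a over 9 libraries were those of D16Ertd472e (0.951), Arhgef39 (0.948) and Cotl1 (0.941). Nearest to Cd79b were Oxld1 (0.983), Leprot (0.963) and Mgst2 (0.962), and nearest to Ms4a1 were Elf2 (0.974), Ephx2 (0.973) and Cmtm7 (0.967). Ighm was nearest to Atp8b4 (0.951), Exo1 (0.944) and Magohb (0.937), and Nkg7 to Mageh1 (0.967), Apobec1 (0.960) and Rps27l (0.958). For Cd3e the nearest were Hoxb8 (0.936), Mir23a (0.925) and Crisp1 (0.903), for Cd3g Hyls1 (0.985), Tnni2 (0.979) and Tnnt3 (0.937), and for Cd8a Sfxn1 (0.976), Galnt10 (0.952) and Zfp568 (0.946). None of these genes is on the lymphocyte lists.

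Exon length moved with the comparisons against vehicle. Across 16380 tested genes with a known length, which are not independent replicates, longer transcripts had lower log2 fold changes, with a Spearman rho of -0.407 for cisplatin and -0.408 for oxaliplatin. The 3279 shortest genes, up to 2013 bases of exon, had a median of 0.18 and 0.19, against 0.00 for all genes. Cd79a (1457 bases), Cd79b (1431), Ighm (1886) and Nkg7 (914) are that short, while Ms4a1 (6187), Cd3e (4080), Cd3g (3269) and Cd8a (3637) are longer. After cisplatin Cd79a changed by 1.36, Cd79b by 1.23, Nkg7 by 1.68 and Ighm by 0.17. With offsets for GC content and exon length together, the cisplatin change was 0.99 for Cd79b, which lost its call, and -0.030 for Ighm. Ms4a1 changed by 1.04 in that fit and gained a call, while Cd79a and Nkg7 kept theirs. The medians give no spread of the short genes, and the part of exon length alone in the members' changes was not tested.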

How the data were processed

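Counts were deposited by the authors as raw reads per gene symbol, 1 file per library, with no normalization. Per the submitters' processing notes, STAR, SAMtools and HTSeq were used with mm10 (GRCm38), while tool versions, the annotation and the strand setting were not stated in the sources used here. Per the labels' protocols, libraries were stranded total RNA, read as 75-nucleotide single ends. The 5 summary rows of unassigned reads (42.8 to 74.5% of recorded reads) were left out. Positions and exon lengths came from GENCODE M21 (GRCm38), which matched 91.6% of symbols and all 8 members.

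All 9 libraries were fitted together in edgeR 4.0.16 (limma 3.58.1, R 4.3.3) with 1 term per group, TMM scaling, filterByExpr and the quasi-likelihood F test; an adjusted p under 0.05 was a call. SE was derived from the F statistic and the log2 fold change. Count intervals are exact Poisson at 95% and, like the floor of 3 reads, cover counting error only. The procedure was tested on simulated data. Alternatives used DESeq2 1.42.0, limma-voom and mgcv 1.9.3 for GC and length offsets, the last chosen after seeing the data. The members and lists were chosen with earlier results of these data known. Besides the members, the rule named up to 6 called genes per list (otherwise the 2 of smallest p), constant regions of antigen receptors, and the 3 best-correlated genes per member, leaving out symbols that begin with Gm or end in Rik. Libraries of a group differed by more than sampling noise. Some genes of the T cell receptor signalling list are not reported here.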

Additional observations from a re-analysis of the deposited data

How the results depend on the processing

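With 3 pools per group, 1 library could end most calls: leaving out each of the 9 libraries gave 0 to 5 members called higher for cisplatin and 0 to 3 for oxaliplatin, lowest (0) for both without vehicle library 1 and highest (5) for cisplatin without vehicle library 2. For oxaliplatin it was also 0 without oxaliplatin library 2 or 3. Over all tested genes these fits called 10.2 to 19.2% higher for cisplatin and 11.1 to 20.4% for oxaliplatin. Library totals alone raised the median of all genes by 0.29 for cisplatin and 0.30 for oxaliplatin and gave 5 members called higher in each, where 34.5 and 36.9% of all genes were then called higher. Requiring at least 1 CPM in 3 libraries left 3 members tested and 1 called for cisplatin, since Cd79a and Nkg7 fell out. For oxaliplatin, DESeq2, limma-voom and the fit with GC and length offsets each called 1 member, and so did the fit with a replicate block (1, with Nkg7 at adjusted p = 0.0606). Same-numbered libraries share only a number: their deviations correlated by -0.127 to 0.0967 over 9 pairs. Ighm turned to -0.030 and -0.12 for cisplatin and oxaliplatin with those offsets. Without 1 library in turn, Cd3g ranged from -0.12 to 1.52 for cisplatin; between the drugs Cd79b ranged from -0.22 to 0.31 (-0.016 in limma-voom), Ms4a1 from -0.32 to 0.17 and Cd3g from -1.18 to 0.010, none called. Cd79a kept its direction for cisplatin in all 18 alternatives that tested it (1.13 to 1.84) and its call in 17.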

Other observations

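Among class-switched constant regions, Igha and not Ighg2c stood out in a single library. Ighg2c had 82 to 266 reads per library. It was not called after cisplatin (0.19, edgeR adjusted p = 0.267) or oxaliplatin (0.28, edgeR adjusted p = 0.0975). In oxaliplatin its level was 6.06 ± 0.534 CPM (SD), against 1.88 ± 2.03 CPM for Igha. Igha, the constant region of IgA, was chosen here after its values were seen. It had 163 reads in oxaliplatin library 3 and 16 to 39 in the other 8 libraries. The same library held 28 reads of the kappa segment Igkv4-50, which had 0 reads elsewhere, and 32 of the heavy chain segment Ighv1-22, which had 0 to 5 elsewhere. It also held 15 reads of Igkv6-17, against 0 to 6 in the others. Cisplatin library 1 held 12 reads of Ighv6-6, against 0 or 1 in the others. As a mean over the group, Igha did not pass for oxaliplatin (1.12, edgeR adjusted p = 0.193). Other plasma cell genes did not move together: Sdc1, the surface proteoglycan syndecan-1 that epithelial and nerve sheath cells also carry, rose from 24.2 to 32.1 CPM after cisplatin and 34.9 CPM after oxaliplatin (0.41 and 0.53). Prdm1, the factor that drives plasma cell formation, fell after cisplatin from 0.777 to 0.472 CPM (-0.67, edgeR adjusted p = 0.0457). That call was lost in each of the 9 fits that left out 1 library.

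Apart from Rag1 and Ebf1, genes of B cell precursors had few reads. Dntt, the enzyme that adds bases at receptor gene joints, had 1, 0 and 2 reads in vehicle, 9, 10 and 2 in cisplatin and 2, 7 and 7 in oxaliplatin. Vpreb3 had 2 to 5 reads in vehicle, 6 to 16 in cisplatin and 3 to 10 in oxaliplatin. Rag1, of the receptor gene recombinase, did not pass after cisplatin (0.72, edgeR adjusted p = 0.134). Ebf1, a factor of early B cells that connective tissue and vessel cells also express, stood at 172 CPM in vehicle and fell to 148 and 147 CPM (-0.22 and -0.23, edgeR adjusted p = 0.0259 and 0.0173). Among 6 lymph node stroma genes, Ccl21a, a chemokine of lymphatic vessels and lymph nodes, was the only one tested, and it rose from 0.374 to 0.962 CPM after cisplatin and 1.17 CPM after oxaliplatin (1.39 and 1.65, edgeR adjusted p = 0.0223 and 0.00762). Glycam1, of lymph node vessels, had 0 reads in all 9 libraries, and Madcam1 had 0 or 1.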
